A study of Mus musculus with 4 samples.

Results

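Bidirectional promoters are short stretches of DNA from which a pair of genes on opposite strands is transcribed in opposite directions. To describe their chromatin accessibility in the limb bud, pairs of protein-coding genes with 5' gene ends at most 1 kb apart were taken from the GENCODE M21 basic annotation (mm10), and the interval between the ends was extended by 500 bp to each side. This gave 754 pairs with 1487 different genes, or 6.78% of the 21938 annotated protein-coding genes. Of the pairs, 42 shared a gene with another pair. With each pair counted once, the genome held 21205 promoters of protein-coding genes. Of these, 17892 were one-way promoters, which had no gene of any type on the other strand with a 5' end within 1 kb, and 772 were shared by a protein-coding gene and a divergent long non-coding RNA (lncRNA) gene. The remaining 1787 promoters were neither. The rule for a pair reads the annotation alone and uses no peak.

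Accessible chromatin was profiled by ATAC-seq, which uses the Tn5 transposase to tag open DNA with sequencing adapters, in the posterior forelimb bud of Swiss Webster mouse embryos at E10.5 (35 somites), with 5000 cells and 18 cycles of PCR per library. The libraries came from 2 wild-type (WT) embryos and 2 Shh-/- embryos, which carry the constitutive Shh tm1amc null allele and lack the SHH ligand, and each library came from 1 embryo. The peak lists were of unequal length, with 39080 and 11973 peaks in WT replicates 1 and 2 and 5589 and 18459 in Shh-/- replicates 1 and 2. Sets of 4 values below follow this order. The lists hold no read counts, so the depth of the libraries is unknown, and a promoter listed without a peak may still have been open. Of 8 genes that mark limb mesenchyme, 8, 2, 1 and 4 had a promoter peak in these libraries. None of 5 blood markers had one in any library, while at most 1 of 6 ectoderm, 1 of 5 endothelium, 2 of 3 muscle progenitor and 2 of 3 neural markers did. The Shh promoter had no peak in any of the 4 lists, so it gave no check of the genotypes.

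At a bidirectional promoter, separate transcription complexes assemble near each of the divergent 5' ends and share a nucleosome-poor region between them. Such promoters usually lie in CpG islands, seldom hold a TATA box, and are common among housekeeping genes, including genes for DNA repair, mitochondrial proteins and histones. SP1, ETS factors, NRF1, YY1 and the CCAAT-binding factor NF-Y are the best known of the proteins that bind them. In the limb bud, SHH made in the posterior mesenchyme patterns the digits, and its response depends on the primary cilium.

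The intervals between the ends were short. Their median was 129.5 bp, the quartiles were 67 and 240 bp, and 618 of the 754 pairs (82.0%) were spaced at most 300 bp apart. The 6 intervals below are examples of the sequences described further on. The first 4 belong to pairs with a peak in all 4 libraries, and the last 2 to pairs with a peak in every library except Shh-/- replicate 1. They were picked for display after their values were seen. Each is read 5' to 3' on the plus strand of GRCm38 (mm10) from the 5' end of the minus-strand gene, named first, to that of the plus-strand gene. Capitals mark matches to CCAAT, to the SP1 box GGGCGG or to the ETS core CCGGAAG, on either strand, and in the histone pair also the CRE TGACGTCA.
Xrcc3/Zfyve21 (chr12:111813873-111814170): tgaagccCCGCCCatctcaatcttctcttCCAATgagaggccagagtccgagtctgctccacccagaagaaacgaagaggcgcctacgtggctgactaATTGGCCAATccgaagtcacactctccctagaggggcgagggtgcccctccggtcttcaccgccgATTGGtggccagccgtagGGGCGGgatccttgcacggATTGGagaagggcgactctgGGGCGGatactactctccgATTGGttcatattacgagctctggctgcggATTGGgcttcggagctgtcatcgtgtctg
Mrps12/Sars2 (chr7:28741820-28741992): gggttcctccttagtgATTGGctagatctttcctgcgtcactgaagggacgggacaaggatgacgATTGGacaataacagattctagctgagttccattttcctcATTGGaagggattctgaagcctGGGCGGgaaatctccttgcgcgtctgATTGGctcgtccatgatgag
Hist1h2ag/Hist1h2bj (chr13:22042944-22043214): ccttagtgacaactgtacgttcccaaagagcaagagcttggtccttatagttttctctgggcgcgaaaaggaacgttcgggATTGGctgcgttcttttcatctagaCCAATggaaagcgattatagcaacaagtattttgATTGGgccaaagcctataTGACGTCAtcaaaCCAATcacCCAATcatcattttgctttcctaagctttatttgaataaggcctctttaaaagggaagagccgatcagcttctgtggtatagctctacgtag
Mbd4/Ift122 (chr6:115853371-115853470): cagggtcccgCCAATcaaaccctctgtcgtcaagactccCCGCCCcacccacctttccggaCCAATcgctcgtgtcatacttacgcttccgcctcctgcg
Dync2h1/Dcun1d5 (chr9:7184446-7184520): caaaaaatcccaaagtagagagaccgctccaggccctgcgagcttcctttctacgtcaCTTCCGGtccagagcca
Kars/Terf2ip (chr8:112011323-112011398): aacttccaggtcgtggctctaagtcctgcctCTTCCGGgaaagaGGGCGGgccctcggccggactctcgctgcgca
The Xrcc3/Zfyve21 interval held 7 CCAAT and 3 SP1 boxes in 298 bases, and the Hist1h2ag/Hist1h2bj interval held 5 CCAAT in 271 bases. CCAAT occurred 4 times in the 173 bases of Mrps12/Sars2 and 2 times in the 100 bases of Mbd4/Ift122. The last 2 intervals, of 75 and 76 bases, had no CCAAT and 1 ETS core each. Shorter intervals have less room for a match, and these counts were not adjusted for length. Other pairs called in all 4 libraries did not share this contrast. The intervals of Cdca2/Kctd9, Dcaf6/Mpc2, Usp5/Cdca3, S100pbp/Yars and Mrps18b/Ppp1r10 held no CCAAT, and that of Mrps18b/Ppp1r10 held an ETS core.

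Bidirectional promoters were rich in G, C and CpG. Over the central 1 kb, their median GC content was 60.2% and their median ratio of observed to expected CpG was 0.773, against 53.3% and 0.444 for one-way promoters. CpG-rich promoters, with a GC content over 55% and a ratio above 0.6, made up 73.2% of the pairs (552), 64.4% of the coding/lncRNA promoters and 31.9% of the one-way promoters. Motifs were searched on both strands in the 300 bp from 250 bp before to 50 bp after each 5' end, so a match between close ends counted for both genes of a pair. The ETS core CCGGAAG was found at 27.3% of the 5' ends of paired genes, 8.41% of one-way ends and 10.8% of the ends of all protein-coding genes. Among CpG-rich promoters alone the shares were 30.4% and 14.7% for paired and one-way ends. The YY1 core AAGATGGCG was found at 5.58% of paired, 1.26% of one-way and 1.70% of all ends, and the NRF1 core CGCATGCG at 5.25%, 2.36% and 2.61%. TATAAA was found at 4.10% of paired, 14.1% of one-way and 12.7% of all ends. The SP1 box GGGCGG was more frequent at paired than at one-way and all ends (68.9%, 38.7% and 43.0%), but within CpG-rich promoters its shares were 75.3% and 77.1%. CCAAT was found at 44.0%, 38.8% and 39% of paired, one-way and all ends, and the CRE TGACGTCA at 4.51%, 2.11% and 2.43%. Within CpG-rich promoters the paired and one-way shares were 5.97% and 2.31% for YY1, 5.42% and 4.17% for NRF1, 3.22% and 5.31% for TATAAA, 43.4% and 35.5% for CCAAT, and 4.69% and 3.54% for the CRE. A match is a run of letters, and no binding was measured.

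Most bidirectional promoters carried a peak, and in each library they did so more often than one-way promoters. In WT replicate 1, 706 of 754 pairs (93.6%, 95% Wilson interval 91.7 to 95.2) had a peak in their window, against 47.3% of one-way promoters and 53.3% of all promoters. In WT replicate 2 these values were 570 pairs (75.6%, 72.4 to 78.5), 27.9% and 33.4%. In Shh-/- replicate 1 they were 377 pairs (50%, 46.4 to 53.6), 10.7% and 14.2%, and in Shh-/- replicate 2 they were 687 pairs (91.1%, 88.9 to 92.9), 38.6% and 45.1%. The share called was therefore 46.4, 47.7, 39.3 and 52.5 percentage points higher for the pairs than for one-way promoters. The mean difference was 46.5 ± 5.45 points (SD, n = 4 libraries), with the same sign in 4 of 4 libraries (two-sided exact sign-flip permutation test, p = 0.125, the smallest value that 4 libraries allow, and 0.188 after Benjamini-Hochberg adjustment over 6 tests). No exact permutation test over these libraries could pass 0.05. Wilson intervals cover counting error only, and promoters are not replicates of a genotype.

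**Figure D1:**
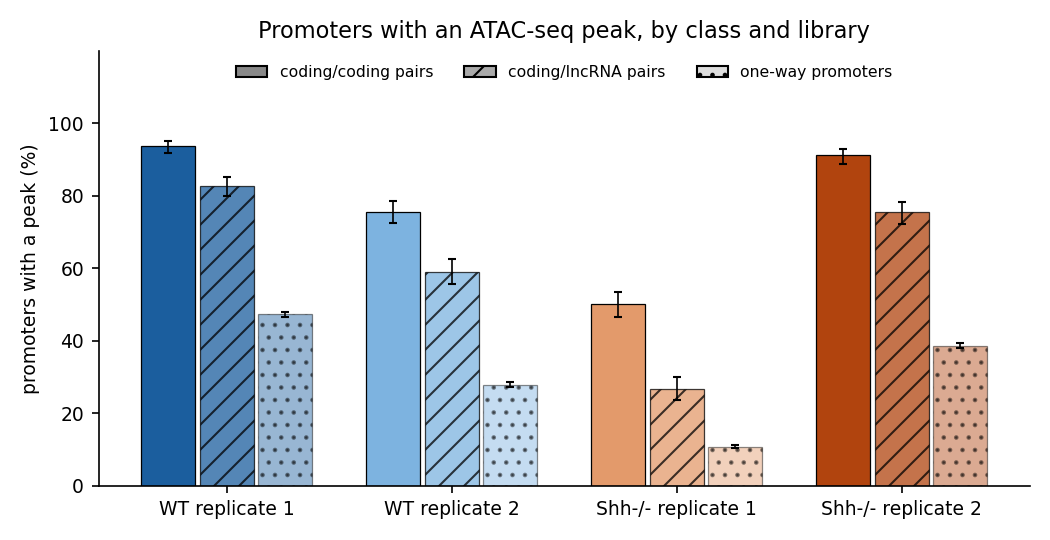
Share of promoters with a peak (vertical axis, percent) in each library for coding/coding pairs (plain bars), coding/lncRNA promoters (hatched) and one-way promoters (dotted), with 95% Wilson intervals. The pairs stand highest in every library, from 50% in Shh-/- replicate 1 to 93.6% in WT replicate 1.

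Coding/lncRNA promoters lay between the pairs and the one-way promoters. They had a peak in 82.6%, 59.1%, 26.7% and 75.4% of cases, and the coding/coding pairs exceeded them by 11, 16.5, 23.3 and 15.7 points (mean 16.6 ± 5.08, SD, n = 4, exact sign-flip permutation test, p = 0.125). This comparison was added after the data were seen. Their median GC content of 59.8% was close to that of the pairs. The remaining 1787 promoters had a peak in 84.2%, 60.1%, 28.2% and 77.3% of cases. Coding/coding pairs whose 5' ends overlapped, which the rule leaves out (457 pairs), reached 91.0%, 69.4%, 37.0% and 86.7%.

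Peaks at bidirectional promoters also ranked high in their lists. The rank of a peak by its score was divided by the number of peaks in its list, so that a low percentile marks a high score. The median percentile for the best peak of called pairs was 8.51 and 21.4 in the WT libraries and 31.2 and 17.2 in the Shh-/- libraries. For one-way promoters the medians were 20.1, 36.8, 41.1 and 34.6, and the difference averaged -13.6 ± 3.45 (SD, n = 4, same sign in 4 of 4, exact sign-flip permutation test, p = 0.125, adjusted 0.188). Among the 1000 highest scoring peaks of each list, between 17.1% and 18.6% of the pairs were reached in the 4 libraries, against 2.53% to 3.12% of one-way promoters. With each list limited to 5589 peaks, the length of the shortest, the shares of pairs were 62.9% and 58.8% in WT and 50% and 64.1% in Shh-/-. One-way promoters then reached 17.5%, 17.4%, 10.7% and 17.1%. Shh-/- replicate 1 was the lowest of the 4 libraries for both classes at that length.

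**Figure D2:**
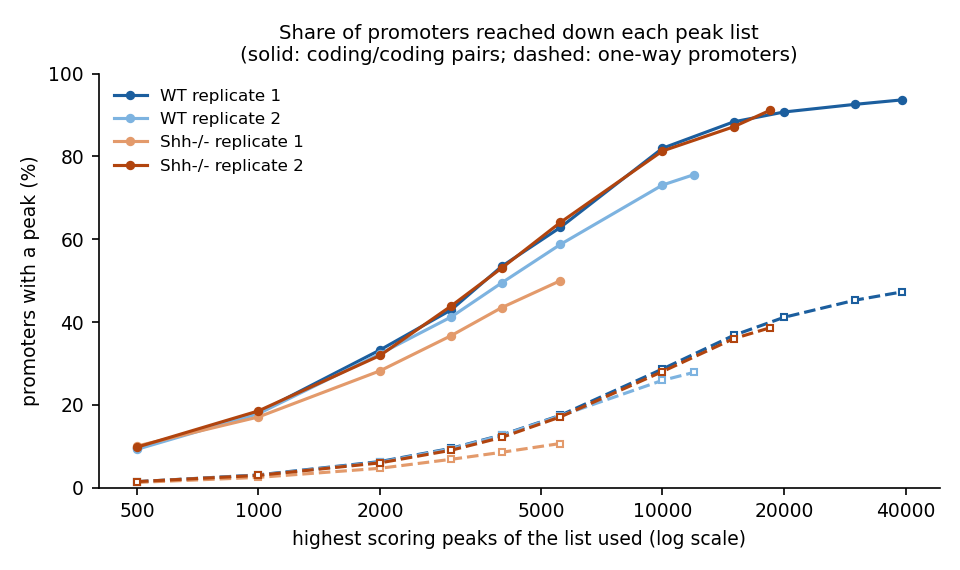
Share of promoters with a peak (vertical axis, percent) when only the highest scoring peaks of a list are used (horizontal axis, number of peaks, log scale), for coding/coding pairs (solid) and one-way promoters (dashed) in each library. The 4 solid lines start together, with 9.28% to 10.1% of pairs among the first 500 peaks, and the line of Shh-/- replicate 1 falls below the others by 2000 peaks (28.2% against 32.0% to 33.3%).

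Part of the difference between the classes moved with base composition. Promoters were divided into 5 strata of equal size by GC content, and 536 of the pairs lay in the upper 2 strata (GC content above 56.8%). In the highest stratum, 98.9% of the pairs and 91.7% of one-way promoters had a peak in WT replicate 1, and 85.6% and 64.2% did in WT replicate 2. The shares were 48.5% and 21.9% in Shh-/- replicate 1, and 97.8% and 82.2% in Shh-/- replicate 2. The middle stratum held 162 pairs, of which 91.4%, 69.8%, 53.1% and 85.2% were called, while one-way promoters there reached 58.4%, 29.8%, 12.9% and 43.1%. Weighted over the strata, the mean difference was 26.4 points in place of 46.5, and among CpG-rich promoters alone it was 17.7 points (exact sign-flip permutation test, p = 0.125 for both). The pairs were above one-way promoters in all 5 strata of all 4 libraries, although the lowest stratum held only 9 pairs.

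**Figure D3:**
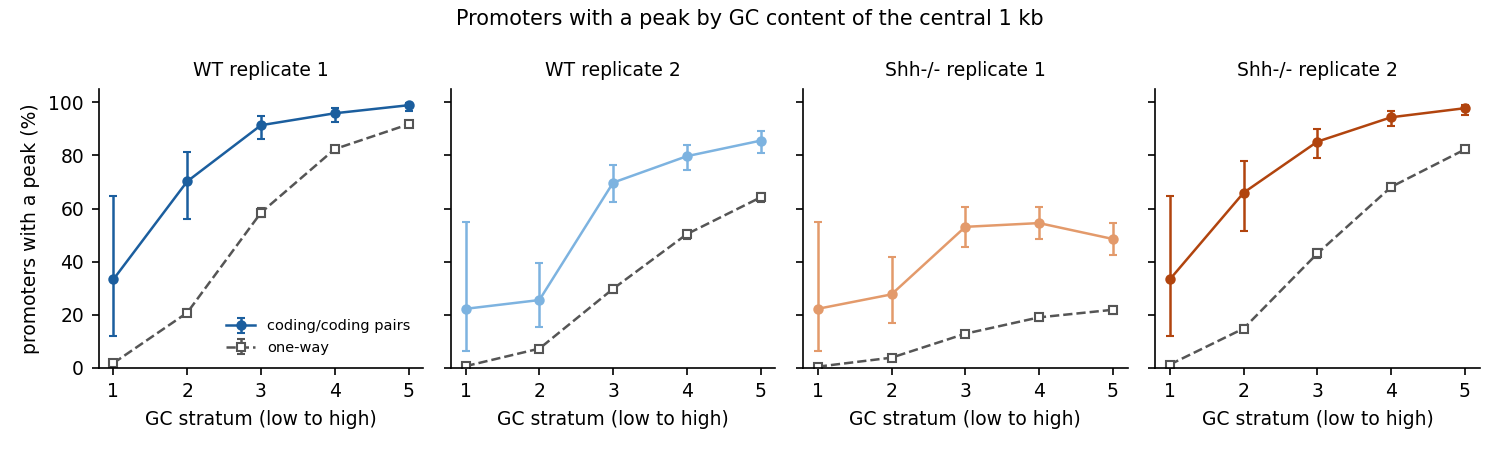
Share of promoters with a peak (vertical axis, percent) by stratum of GC content of the central 1 kb (horizontal axis, 1 lowest to 5 highest) for coding/coding pairs (solid, filled) and one-way promoters (dashed, open), with 95% Wilson intervals. Both classes rise with GC content in WT and in Shh-/- replicate 2, and the pairs of Shh-/- replicate 1 stay between 48.5% and 54.5% in the upper 3 strata.

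Promoters called in WT replicate 1, the library with the longest list, were followed into the others. Of these, 80.5% of pairs and 57.7% of one-way promoters were also called in WT replicate 2. The values were 53.4% and 22.5% in Shh-/- replicate 1, and 96.5% and 78.7% in Shh-/- replicate 2. When these promoters were divided into 5 strata of their rank in WT replicate 1, the difference in WT replicate 2 lay between 0.08 and 6.28 points. In Shh-/- replicate 1 it was 22.8 points in the second stratum, where 54.9% of 182 pairs and 32.1% of 1588 one-way promoters were called, and -1.12 points in the lowest, where 0 of 42 pairs were called. In Shh-/- replicate 2 it rose from 0.50 points in the highest stratum to 24.1 in the lowest. These values were computed after the data were seen, and they describe the 4 libraries without a test.

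Peaks over bidirectional promoters were broad. The median width of the best peak was 931 and 618 bp in the WT libraries and 426 and 845 bp in the Shh-/- libraries. At one-way promoters it was 726, 487, 366 and 657 bp. The difference averaged 146 ± 65.5 bp (SD, n = 4, same sign in 4 of 4, exact sign-flip permutation test, p = 0.125, adjusted 0.188). Peaks of higher rank were wider in both classes, and within 5 strata of rank the mean difference was 37.0 bp, an alternative added after the data were seen. Single strata of rank went both ways, from -46 bp in the lowest of Shh-/- replicate 2 to 97 bp in the highest of WT replicate 1. Within strata of GC content the mean difference was 123.3 bp. Against coding/lncRNA promoters it was 46.2 bp, with Shh-/- replicate 1 at -4.50 bp.

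The share called and the width varied with the spacing of the ends. In Shh-/- replicate 1, where the share varied most, 115 of 312 pairs spaced 1 to 100 bp apart had a peak (36.9%, 31.7 to 42.3), 50.5% of 206 pairs spaced 101 to 200 bp, 73.1% of 145 pairs spaced 201 to 400 bp (65.4 to 79.7), 63.5% of 63 pairs spaced 401 to 700 bp and 42.9% of 28 pairs beyond that. In WT replicate 1 the share lay between 90.5% and 95.2% at every spacing, and in Shh-/- replicate 2 between 82.1% and 94.5%. WT replicate 2 went from 70.8% in the closest pairs to 83.4% at 201 to 400 bp and 64.3% in the widest. The median width rose with spacing up to 700 bp in WT replicate 1 (815, 964, 1078 and 1314 bp), in the other WT library and in Shh-/- replicate 2, while the values for Shh-/- replicate 1 were 355, 465.5, 421.5 and 706 bp. Across called pairs, Spearman's rank correlation of spacing and width was between 0.23 and 0.35 in the 4 libraries (n = 377 to 706). This is a description across pairs that share a library. Peak rank also varied with spacing, as given further on, and its part in the share and the width was not tested. Around the limit of the rule, 9 of 11 pairs spaced 901 to 1000 bp and 10 of 12 spaced 1001 to 1100 bp had a peak in WT replicate 1. The counts inside and outside the limit were 6 and 7 in the other WT library, and 4 and 4, and 8 and 8, in the Shh-/- libraries.

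**Figure D4:**
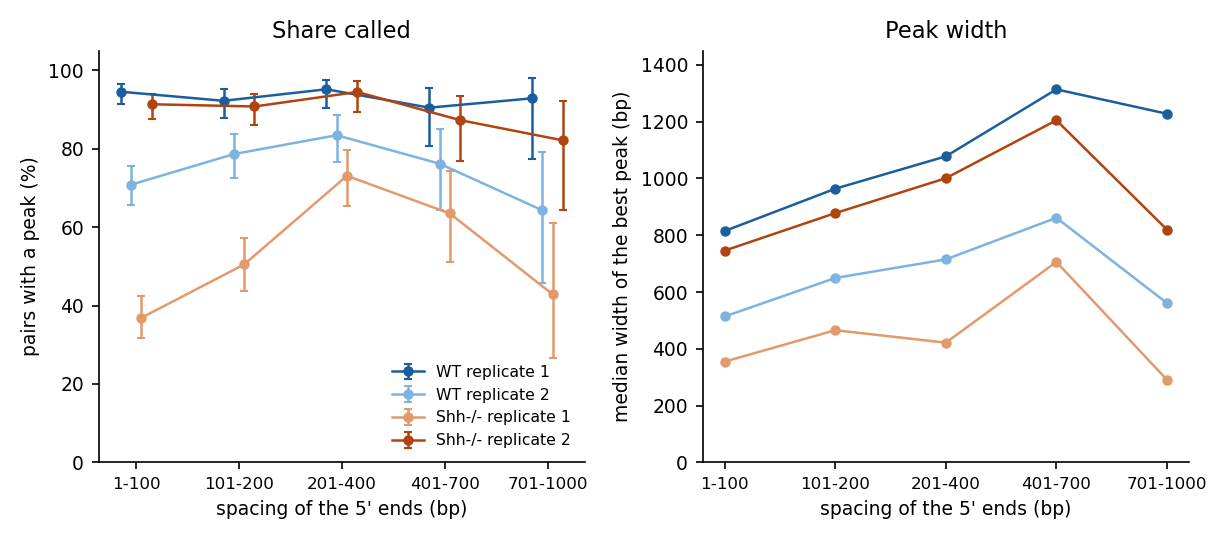
Left, share of coding/coding pairs with a peak (percent, 95% Wilson intervals), and right, median width of the best peak (bp), both by spacing of the 5' ends (horizontal axis, bp), for each library. Shh-/- replicate 1 runs from 36.9% in the closest pairs to 73.1% at 201 to 400 bp, whereas WT replicate 1 stays between 90.5% and 95.2% throughout.

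A single peak usually spanned the whole interval. Of the called pairs, 90.9% and 80.2% in the WT libraries and 61.8% and 89.2% in the Shh-/- libraries had a best peak that covered both 5' ends, and only 8, 11, 2 and 14 pairs had more than 1 peak. Most intervals were shorter than a typical peak, and at a spacing of 701 to 1000 bp the shares covered were 34.6%, 11.1%, 8.33% and 26.1%. Peaks closer than about 200 bp appear joined in these lists, since the smallest gap between peaks was 201 bp. The summit, the point of highest signal in a peak, lay at a median distance of 75, 82, 88 and 76.5 bp from the midpoint of the interval. One-way summits lay at a median distance of 117, 112, 130 and 115 bp from the 5' end. A midpoint and a single 5' end are unlike reference points, so these distances do not compare how well peaks were centred. The summit of a pair was left of the midpoint in 50% to 52.3% of called pairs. It fell between the ends in 44.5%, 44.4%, 48.8% and 43.7% of called pairs, and in 76.5%, 72.7%, 80.4% and 74.4% of those spaced by at least 200 bp.

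Along the direction of transcription, the summit of each pair was counted from both 5' ends. Both distances together equal minus the spacing wherever the summit lies. A mean position upstream is therefore set by the annotation. The median position was -79 bp in each WT library, and -105.5 and -80 bp in the Shh-/- libraries, and 71.8% to 74.4% of the summits were upstream. One-way summits had medians of 32, 21 and 40 bp downstream in the first, second and last of these libraries, but of -77 bp in Shh-/- replicate 1, where 66.1% were upstream. The difference averaged -89.9 ± 41.7 bp (SD, n = 4, same sign in 4 of 4, exact sign-flip permutation test, p = 0.125, adjusted 0.188). It was -28.5 bp in Shh-/- replicate 1 and -100 to -120 bp in the others. A summit between the ends is upstream of both genes by the construction of a pair, and any other summit is upstream of 1 of them. The upstream position of pairs is thus partly set in advance, and the test cannot tell this from a property of the peaks. Coding/lncRNA promoters, also counted from both ends, differed from the pairs by only 6.75 ± 2.72 bp in this measure. Where all 4 libraries had a peak, the summits of a pair spanned a median of 124 bp over the libraries (n = 362), and those of a one-way promoter 114 bp (n = 1739).

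**Figure D5:**
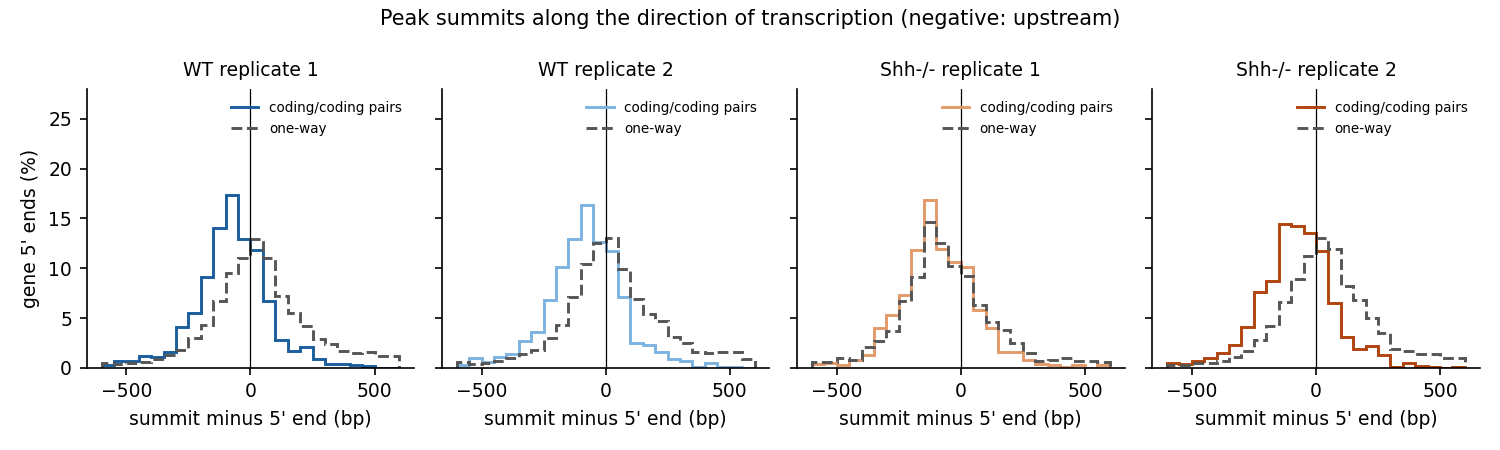
Distance of the peak summit from the 5' end of each gene along its direction of transcription (horizontal axis, bp, negative upstream, bins of 50 bp) as a share of 5' ends (vertical axis, percent), for genes of coding/coding pairs (solid) and one-way genes (dashed) in each library. The solid curves sit to the left of the dashed ones in WT and in Shh-/- replicate 2, and both curves lie upstream in Shh-/- replicate 1.

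The genotypes did not differ beyond the spread between replicates in the share of pairs called. It averaged 84.6% ± 12.8 (SD, n = 2) in WT and 70.6% ± 29.1 (SD, n = 2) in Shh-/-, and the WT values of 93.6% and 75.6% overlapped the Shh-/- values of 91.1% and 50%. The difference of 14.1 points (two-sided exact permutation test, p = 0.667, adjusted 0.8, with 0.333 the smallest p that 2 against 2 libraries allow) was -6.50 points without Shh-/- replicate 1, and 3.78 points with lists of equal length. The distance to one-way promoters was 47.0 ± 0.96 points in WT and 45.9 ± 9.32 points in Shh-/- (SD, n = 2 each, exact permutation test, p = 1).

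Of the 754 pairs, 362 (48.0%) had a peak in all 4 libraries, against 13.1% of all, 9.72% of one-way and 25.3% of coding/lncRNA promoters. A further 203 pairs (26.9%) had one in every library except Shh-/- replicate 1, against 16.2% of one-way and 32.8% of coding/lncRNA promoters. Another 101 pairs (13.4%) had one only in WT replicate 1 and Shh-/- replicate 2, the libraries with the longest lists. This pattern held 10.4% of one-way and 15.2% of coding/lncRNA promoters. Peaks in both WT libraries and neither Shh-/- library were found at 3 pairs (0.398%, 0.135 to 1.16), against 1.27% of all promoters. The reverse was found at 0 pairs, where a count of 0 allows up to 0.507% (Wilson), against 0.00943% of all promoters. Leaving out 1 library moved the first count to as many as 206 (without Shh-/- replicate 2) and the second to as many as 15 (without WT replicate 1). With lists of equal length, 312 pairs (41.4%) were called in all 4, against 10.9% of all promoters. In that setting 11 pairs (1.46%) were called only in both WT libraries, against 1.31% of all promoters, and 6 (0.796%) only in both Shh-/- libraries, against 0.283%. These few pairs had intervals of 0.816 to 2.59% and 0.365 to 1.73%.

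Of the 3 pairs with a peak in WT alone, 2 were pairs of zinc finger genes on chromosome 17, Zfp944/Zfp758 and Zfp942/Zfp943. Their peaks ranked 4982 and 4488, and 8176 and 10718, in WT replicates 1 and 2, with widths of 425 and 285 bp and of 511 and 248 bp. Words of 75 bases, the read length of the study, that occur more than once in the genome made up 24.3% and 23.4% of their windows. The other was Asl/Crcp, the genes of argininosuccinate lyase, an enzyme of the urea cycle, and of a subunit of RNA polymerase III. Its peaks ranked 16631 and 9919.

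Pairs missing from Shh-/- replicate 1 alone differed from pairs called in all 4 libraries in sequence and spacing. Their median spacing was 92 bp against 173.5 bp, and their median GC content was 62.4% against 60.4%. CCAAT was present at 32.1% of their 5' ends (27.7 to 36.8, n = 399) and at 56.2% (52.6 to 59.8, n = 713) of the ends of pairs called in all 4, against 39% of all ends. A match between close ends counted for both genes of a pair, so these intervals are too narrow. The ETS core was present at 34.3% and 25.7%. These groups were formed from the calls themselves, so the values are descriptions without a test. Rank also moved with spacing. In WT replicate 1 the median rank percentile was 12.75 at 1 to 100 bp, 4.39 at 201 to 400 bp and 11.72 at 701 to 1000 bp. In Shh-/- replicate 2 these values were 24.35, 8.91 and 30.52. Shh-/- replicate 1 had the shortest list, so pairs of low rank could be missing from it for that reason. Spacing, GC content, CCAAT and rank were not separated here, and the part of each was not tested.

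The highest mean ranks among pairs called in all 4 libraries belonged to Srgap2/Fam72a, Cdca2/Kctd9, Cep57/Fam76b, Rnf5/Agpat1 and Pdcd10/Serpini1. Srgap2, a GTPase-activating protein, and Fam72a are divided by 551 bp on chromosome 1 (131527352 to 131527903), and their peak ranked 32, 42, 20 and 32 in the 4 libraries. Its widths of 2419, 1865, 938 and 1859 bp gave it the widest mean peak of all pairs called in 4 libraries. The summit stayed within 45 bp of the midpoint in each library (-7, -45, -25 and -12 bp). Cdca2, a chromatin-bound subunit of protein phosphatase 1, and Kctd9 lie 96 bp apart and ranked 30, 60, 23 and 36. The peak of Rnf5, an endoplasmic reticulum ubiquitin ligase, and Agpat1, an enzyme of phosphatidic acid synthesis, ranked 44, 158, 34 and 38. The next widest were Usp5/Cdca3 (2254, 1255, 1741 and 1733 bp) and Dcaf6/Mpc2 (2446, 1581, 910 and 1976 bp). Usp5 encodes a deubiquitinase and Mpc2 a subunit of the mitochondrial pyruvate carrier. These pairs were chosen by mean rank or mean width over the 4 lists. High ranks in both genotypes, and in short as well as long lists, largely follow from that choice.

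Genes for DNA replication and repair were frequent in pairs. Of 154 such genes, 45 (29.2%) were in one, against 6.78% of all protein-coding genes. Of their 46 pairs, 45, 39, 23 and 45 had a peak in the 4 libraries, where 93.6%, 75.6%, 50% and 91.1% of all pairs did. Of the 46, 21 (45.7%) were called in all 4 libraries, near the 48.0% of all pairs, and 0 in none. Xrcc3, which acts in homologous recombination, and Zfyve21 share the CCAAT-rich interval shown above, and ranked 356, 313, 245 and 144. At the low end, Fancd2 of the Fanconi anemia pathway, 30 bp from Emc3, had a peak only in WT replicate 1, at rank 27344. Recql4, a DNA helicase, and Lrrc14 had a peak in WT replicate 1 (rank 6258) and Shh-/- replicate 2 (rank 9979).

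The replication-dependent histones held the largest share of genes in pairs among the lists examined, 27 of 67 (40.3%, against 6.78% of all genes), as H2A and H2B genes often face away from each other. Of their 14 pairs, 10 (71.4%) were called in all 4 libraries, against 48.0% of all pairs. Hist1h2ac/Hist1h2bc ranked 98, 102, 143 and 184, and Hist1h2ag/Hist1h2bj ranked 145, 333, 180 and 118, with widths of 2070, 1345, 1156 and 1931 bp. In contrast, 3 histone pairs had no peak in any library. Hist1h2bq/Hist1h2ao and Hist1h2ap/Hist1h2br are near-identical copies on chromosome 13, in which 100% of the 75-base words occur at least 2 times in the genome. They were the only 2 of the 754 pairs with over 50% of such words, and whether the lack of a peak came from this was not tested, since the handling of reads with several matches is not given in the sources used here. The other, Hist1h2ba/Hist1h2aa, encodes variants of the testis.

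Of 66 genes of the primary cilium, 11 (16.7%) were in pairs, against 6.78% of all genes. Of their 11 pairs, 11, 10, 7 and 11 had a peak in the 4 libraries, where 93.6%, 75.6%, 50% and 91.1% of all pairs did. Of the 11, 7 (63.6%) were called in all 4, against 48.0% of all pairs. Ift122, a subunit of the retrograde intraflagellar transport complex, shares its promoter with the DNA glycosylase gene Mbd4, and its peak ranked 106, 270, 162 and 157. Cep290, of the ciliary transition zone, and Tmtc3 ranked 452, 565, 353 and 689. Ift46 and Arcn1 had peaks only in WT replicate 1 and Shh-/- replicate 2, at ranks 17023 and 16801. Dync2h1, the motor of retrograde transport in cilia, and Dcun1d5 ranked 7524 and 4840 in WT and 8308 in Shh-/- replicate 2, and had no peak in Shh-/- replicate 1.

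Of 40 HH pathway genes, 2 (5%) were in pairs, near the 6.78% of all protein-coding genes. They were Dync2h1 and Stk36, the latter a kinase related to Drosophila Fused. Stk36 and the ubiquitin ligase gene Rnf25 lie 48 bp apart, and their only peak was in Shh-/- replicate 2, at rank 13764 of 18459. None of 60 transcription factor genes of limb patterning was in a pair.

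Genes of mitochondrial proteins were in pairs in 48 of 234 cases (20.5%, against 6.78% of all genes). Of their 47 pairs, 47, 34, 22 and 45 were called in the 4 libraries, where 93.6%, 75.6%, 50% and 91.1% of all pairs were. Of the 47, 20 (42.6%) were called in all 4, near the 48.0% of all pairs. The best ranked were Mrps18b/Ppp1r10 (238, 999, 144 and 242) and Uqcrh/Lrrc41 (394, 844, 432 and 478), which hold a mitochondrial ribosomal protein and a subunit of respiratory complex III. Ndufa1/Rnf113a1 and Mitd1/Mrpl30 had a peak only in WT replicate 1, at ranks 33776 and 15193. Of 5 pairs with an aminoacyl-tRNA synthetase gene, 3 (60%) were called in all 4, against 48.0% of all pairs, among them Mrps12/Sars2, at ranks 922, 445, 539 and 1247, and S100pbp/Yars, at 733, 538, 859 and 1044. Orc3/Rars2 had no peak in WT replicate 2, and Kars/Terf2ip none in Shh-/- replicate 1. Proteasome and chaperonin genes gave 11 pairs, 5 of them (45.5%) called in all 4, near the share of all pairs. Psme2/Rnf31, with an activator of the proteasome, ranked 1065, 315, 765 and 655, whereas Psmb1/Tbp, with a core subunit of the proteasome and the TATA-binding protein, ranked 8174 and 12965 in the longest lists, WT replicate 1 and Shh-/- replicate 2, and was not called in the others.

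Of 83 ribosomal protein genes, 8 (9.64%) were in pairs, against 6.78% of all protein-coding genes. Of the 8 pairs, 7, 2, 0 and 6 had a peak and 0 were called in all 4, against 93.6%, 75.6%, 50% and 91.1% of all pairs in these libraries and 48.0% in all 4. Polr3a/Rps24 had a peak in WT replicate 1 alone, at rank 12904. With 8 pairs the 95% Wilson bounds on such a share are wide, and the pairs were not tested against the rest. The only pair of collagen genes, Col4a4/Col4a3, which encode chains of type IV collagen of basement membranes, was called in WT replicate 1 alone, at rank 13726.

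Only 42 pairs (5.57%, 4.15 to 7.44) had no peak in any library, against 44.9% of all, 50.9% of one-way and 16.45% of coding/lncRNA promoters. Their median GC content was 53.2% and their median ratio of observed to expected CpG 0.348. Among their genes, named after their values were seen, were Pecam1 of endothelium, Cd8b1 of T cells, Nphs1 of kidney podocytes and Smc1b of meiosis, and also broadly used genes such as Rps2 of the ribosome and the corepressor gene Trim28. The 5 with the closest ends were Best1/Rab3il1, Rnf151/Rps2, Sec24a/Sar1b, 4930430F08Rik/1700017N19Rik and Plgrkt/Cd274. Cd274 encodes the immune checkpoint ligand PD-L1, and Sec24a and Sar1b encode parts of the COPII coat of secretory vesicles. Next to Rnf151/Rps2, each of the 4 lists had a peak 1038 to 1085 bp outside the window, and next to Cenpj/Parp4 each had one 2843 to 2922 bp outside it. For 26 of the 42 pairs, the nearest peak in WT replicate 1 was more than 10 kb away. In 31 of the 42 pairs, every 75-base word of the window was unique in the genome.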

How the data were processed

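Peaks were called in 4 ATAC-seq libraries, 2 WT and 2 Shh-/-, grouped by the genotype and replicate number of their titles. The submitters' processing notes name mm10, Bowtie2 2.2.5 and MACS2 2.1.0, and peaks were called in each library separately with a 200 bp window and 0.05 as the limit for the q-value. Read filters and any shift for the Tn5 cut are not given in the sources used here. The deposited score is the authors' value, by the format 10 times −log10 of the q-value, and was used only to rank peaks within a list. The deposited fold, p-value and q-value columns hold 0 and were not used.

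Genes came from GENCODE M21 (basic set) and sequences from GRCm38.p6, the assembly of mm10. A promoter was called in a library if a peak overlapped its window by at least 1 bp, and the best ranked of its peaks gave width, rank and summit. One-way windows were the 5' end with 500 bp on each side. Tests were two-sided exact permutation tests over libraries, with 6 tests adjusted by Benjamini-Hochberg, and scripts were checked on simulated peaks. Nothing in the sources says that libraries of 1 genotype shared a litter or a day of preparation. The p-values rest on these 4 libraries alone. The exact sign-flip test gives p = 0.125 whenever 4 differences share a sign, so it does not measure their spread. A peak list does not show the depth behind a call, so a share of promoters called depends on depth and library quality.

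Pairs were named by a rule: the 5 best mean ranks among pairs called in all 4 libraries, up to 5 called in 1 genotype only, the 5 closest pairs called in none, the 3 widest, and up to 4 pairs of each gene list. Of these, 1 pair named by the rule is not reported here. The rule for a pair uses the annotation alone, but it, the gene lists and the motifs were chosen with earlier results of these data known. Alternatives were equal list length, a score of at least 50, a fixed 1 kb window, transcript ends, overlapping ends, spacing of at most 500 bp, another one-way class, summits in windows, autosomes, GC strata, CpG-rich promoters, leaving out each library and a replicate block. Words of 75 bases were counted on the chromosomes of GRCm38.p6. Analyses used Python 3.11.15, NumPy 2.4.6, pandas 2.3.3 and SciPy 1.17.1.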

Additional observations from a re-analysis of the deposited data

How the results depend on the processing

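The mean differences between bidirectional and one-way promoters in share called, width, rank and summit position kept their direction under every alternative with that comparison. Within single strata of rank the difference in width went both ways. For summit position the direction is partly set by the annotation, since each pair is counted from both ends. None of these exact tests could pass 0.05, so p-values say nothing about stability. Other than leaving out a library, these alternatives gave 17.7 to 47.9 points for the share, 37.0 to 160 bp for the width, -11.4 to -16.1 for the rank percentile and -65.4 to -95.2 bp for the summit. Without 1 library at a time the ranges were 44.5 to 48.9 points, 126 to 175 bp, -12.3 to -14.8 and -79.8 to -110 bp. Against coding/lncRNA promoters, a comparison added after the data were seen, the differences were 16.6 points, 46.2 bp and -4.94, with the rank at 0.107 in Shh-/- replicate 1, and that in summit position turned to 6.75 bp. The cause was not tested.

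The WT minus Shh-/- difference in share ranged from -6.50 to 34.6 points without 1 library, and the difference in distance to one-way promoters from -5.44 to 7.75 points. Both turned negative without Shh-/- replicate 1. The latter was also negative within GC strata (-7.02) and in CpG-rich promoters (-8.24). The cause was not tested here either.

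The counts moved by over 1.5 times as follows. Pairs called in both WT and no Shh-/- library numbered 11 at equal list length, 1 at a score of at least 50, 6 with overlapping ends, 1 among CpG-rich promoters and 3 to 206 without 1 library (25 without WT replicate 2, 206 without Shh-/- replicate 2). Pairs called in both Shh-/- and no WT library numbered 6 at equal list length and 0 to 15 without 1 library (15 without WT replicate 1, 4 without Shh-/- replicate 1). Pairs called in none numbered 194 at equal list length, 67 at a score of at least 50, 78 with overlapping ends, 7 among CpG-rich promoters and 42 to 64 without 1 library, the highest without WT replicate 1. Pairs called in every library numbered 362 to 565 without 1 library, the highest without Shh-/- replicate 1.

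Whether the replicate numbers pair the libraries cannot be told from 2 libraries per genotype. The deviations of same-numbered libraries correlated at -0.247 over all promoters and those of the crossed pairing at 0.247, which mirror each other by construction. The replicate block left the difference in share at 14.1 points (exact sign-flip permutation test, p = 1) and that in distance at 1.15 points (p = 1). The crossed pairing, added after the data were seen, gave p = 0.5 and p = 1 in the same exact test, where 0.5 is the smallest p that 2 pairs allow.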
